A study of Macaca mulatta with 24 samples.

Results

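CNDP1 and CNDP2, the genes of the carnosine dipeptidases, were followed in the ileum of rhesus macaques after total body irradiation (TBI). They were chosen by gene symbol, as every probe that the deposited normalized table names CNDP1 or CNDP2, after earlier results of the same arrays against the controls were known. The rule found 2 probes, 1 for each gene, among the 43603 probes of the array that are not controls, of which 23758 carry a gene symbol. The changes of the pair from the unirradiated controls are therefore given as a description, with no test.

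Carnosine dipeptidases are zinc-dependent enzymes that cut small peptides into their amino acids. CNDP1 encodes the carnosinase that is secreted and found in blood serum, where it splits carnosine into β-alanine and histidine and also acts on homocarnosine. CNDP2 encodes the cytosolic nonspecific dipeptidase, which is present in many tissues and accepts a wide range of dipeptides, among them the cysteinylglycine left when glutathione is broken down. In the small intestine, dipeptides taken up from the lumen by peptide transporters are split by such cytosolic enzymes in the absorptive enterocytes.

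RNA came from a piece of whole ileum wall of 24 male macaques, with 1 Agilent single-colour array for each animal. The unirradiated control group held 4 animals, whose labels carry day 4 and a dose of 0. The irradiated animals received a single exposure of 6.7 Gy or 7.4 Gy and were examined on day 4 (4 animals at each dose), day 7 (4 at each dose) or day 12 (2 at each dose). The day was taken from the title and characteristics of each sample, because the free-text treatment label names another last day. The same 4 controls served every comparison with irradiated ileum. Because RNA was taken from whole tissue, fewer cells of a type and less RNA per cell cannot be told apart.

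The arrays lay on 6 slides that were scanned on 2 days, and all 4 controls belonged to the first scan day. The share of probes well above background was between 72.7% and 88.1% over the 24 arrays. All 5 ileal identity markers (FABP6, SLC10A2, SLC51A, SLC51B and CUBN) were measured. Their summed level, in multiples of the 75th percentile of each array, ranged from 442.7 to 550.1 in the controls. Replicate 4 of 6.7 Gy day 4 stood apart, with a summed ileal level of 144.4, a summed enterocyte level of 86.0 against 178.5 to 418.1 in the controls, and a summed neutrophil level of 6.97 against 0.48 to 0.54. CNDP1 and CNDP2 differences of the fit over all arrays that involve this array are given with and without it, and so are the genes of related pathways that are described by name.

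CNDP1 was low in unirradiated ileum, was highest on day 4 after TBI, and stood closer to the control level on each later day examined. Levels are log2 intensities relative to the 75th percentile of the same array, so that 0 is the intensity of a probe at that percentile. In the controls the CNDP1 probe measured -4.78, -4.63, -4.56 and -4.94 (mean -4.73 ± 0.17, SD, n = 4). These are processed intensities of 39.0 to 47.8 units. Although dim, the probe was well above background on all 24 arrays.

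On day 4 after 6.7 Gy, CNDP1 measured 0.33, -1.01, -0.16 and -1.62 (mean -0.61 ± 0.87, SD, n = 4). Its processed intensities there were between 412.2 and 1403 units. On day 4 after 7.4 Gy the values were -1.29, -1.29, -1.52 and -1.34 (mean -1.36 ± 0.11, SD, n = 4). All 8 animals of day 4 lay far above all 4 controls, and the animals at 6.7 Gy were spread more widely than those at 7.4 Gy.

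On day 7 after 6.7 Gy, CNDP1 measured -2.57, -2.51, -2.11 and -2.37 (mean -2.39 ± 0.20, SD, n = 4). On day 7 after 7.4 Gy the values were -3.04, -1.34, -2.65 and -4.14 (mean -2.79 ± 1.16, SD, n = 4). The animals at 7.4 Gy were far apart on this day, since 1 of them lay at the level of day 4 and another close to the controls.

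On day 12 the 2 animals at 6.7 Gy measured -4.22 and -3.30, with a mean of -3.76. The 2 animals at 7.4 Gy measured -3.26 and -3.30, with a mean of -3.28. All 4 animals of day 12 were still above every control, although the lowest of them was near the control range.

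**Figure D1:**
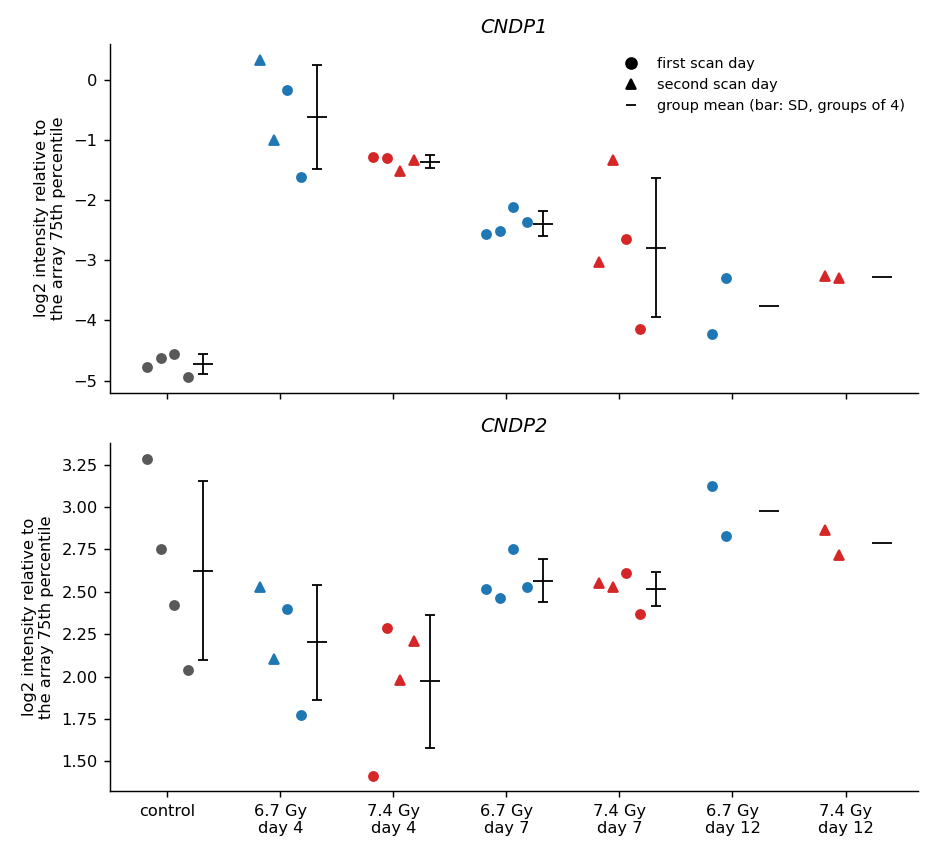
Log2 intensity relative to the array's 75th percentile for CNDP1 (upper panel) and CNDP2 (lower panel) in each of the 24 animals, by dose and day; circles were scanned on the first day and triangles on the second, and horizontal marks are group means with SD for groups of 4. All 20 irradiated animals lie above the 4 controls for CNDP1, whereas for CNDP2 every irradiated group overlaps the controls.

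Ordered by group mean, CNDP1 was highest on day 4 at 6.7 Gy, followed by day 4 at 7.4 Gy, day 7 at 6.7 Gy, day 7 at 7.4 Gy, day 12 at 7.4 Gy, day 12 at 6.7 Gy and the controls. The day 4 groups overlapped each other, as did the day 7 groups, and day 7 at 7.4 Gy overlapped day 12 at 7.4 Gy. Day 4 at 7.4 Gy did not overlap day 7 at 6.7 Gy. The day 12 groups were separated only by the third decimal, with an animal of each dose at -3.30.

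Relative to the controls, CNDP1 was higher by 4.11 on the log2 scale (17.3-fold, SE 0.42) on day 4 after 6.7 Gy and by 3.36 (10.3-fold, SE 0.42) on day 4 after 7.4 Gy. The former difference was 4.45 without replicate 4 of 6.7 Gy day 4. On day 7 CNDP1 was higher by 2.34 (5.05-fold, SE 0.42) after 6.7 Gy and by 1.93 (3.82-fold, SE 0.42) after 7.4 Gy. On day 12 it was higher by 0.96 (1.95-fold, SE 0.52) after 6.7 Gy and by 1.45 (2.73-fold, SE 0.52) after 7.4 Gy.

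Ranked by size of rise among all 36108 tested probes, CNDP1 stood at place 5 on day 4 after 6.7 Gy, 14 on day 4 after 7.4 Gy, 13 on day 7 after 6.7 Gy, 48 on day 7 after 7.4 Gy, 499 on day 12 after 6.7 Gy and 155 on day 12 after 7.4 Gy. These comparisons chose the pair, so nothing is read from the ranks. On day 4 the summed level of the ileal identity markers was also lower than in the controls (442.7 to 550.1) in all 8 animals, at 323.3 to 426.3 in the other 3 animals at 6.7 Gy and 375.3 to 411.9 at 7.4 Gy. At the limma cut-off given below, 0 of these 5 markers were called on day 4 at either dose, beside 0.978% (6.7 Gy) and 2.33% (7.4 Gy) of all tested probes. Whether the lower summed level bears on the CNDP1 differences was not tested.

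These differences were smaller under an alternative that started from spot medians, applied normexp background correction and added an offset of 50. These choices were not separated. The median CNDP1 spot intensity in the controls was 67.0 to 83.0 units, against local backgrounds of 19.0 to 25.0 units. Under this alternative the difference from the controls was 2.89 and 2.20 on day 4, 1.42 and 1.16 on day 7, and 0.57 and 0.66 on day 12, at 6.7 Gy and 7.4 Gy respectively. The value of 2.89 was 3.17 without replicate 4 of 6.7 Gy day 4.

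Restricted to arrays of the first scan day, which holds all controls, CNDP1 was higher than in the controls by 3.84 on day 4 and 2.34 on day 7 after 6.7 Gy. The 3.84 rests on 2 arrays, of which 1 is the replicate 4 that stood apart, and the other alone gave 4.56. After 7.4 Gy it was higher by 3.43 on day 4 and by 1.33 on day 7, with 2 arrays each. Both 6.7 Gy animals of day 12 were scanned on the first day, which gave 0.96. Both 7.4 Gy animals of day 12 were scanned on the second day with no control beside them, so no value within a scan day could be given. With scan day as a term in the fit over all arrays, estimated from the groups that were scanned on both days, their difference from the controls was 0.91 in place of 1.45. On day 7 after 7.4 Gy the difference was 2.38 without replicate 4 of that group, the lowest, and 1.45 without replicate 2, the highest.

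**Figure D2:**
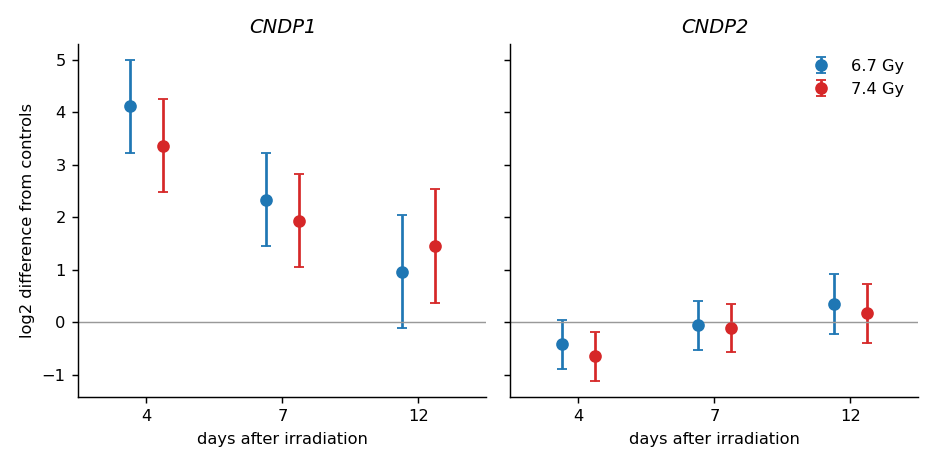
Log2 difference from the 4 controls for CNDP1 (left) and CNDP2 (right) by day after exposure to 6.7 Gy (blue) or 7.4 Gy (red), with 95% intervals from the limma fit over all 24 arrays. CNDP1 differences run from 4.11 to 0.96 at 6.7 Gy and from 3.36 to 1.45 at 7.4 Gy, while CNDP2 differences stay between -0.65 and 0.35. These comparisons chose the pair, so the intervals are shown as a description and not as a test.

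The comparisons between irradiated groups were not those that chose the genes, although they share the irradiated animals with them. The falls from day 4 use the same high day 4 values, so their p-values are not independent of the choice. In the comparisons between irradiated groups, probes were called at a Benjamini-Hochberg adjusted limma p below 0.05 and a fold change of at least 2. CNDP1 fell between day 4 and day 12 at both doses. At 6.7 Gy the fall was -3.15 on the log2 scale (SE 0.52, limma adjusted p = 0.0058), and the 2 animals of day 12 lay below all 4 of day 4. At 7.4 Gy it was -1.92 (SE 0.52, limma adjusted p = 0.046), again with no overlap. Of all probes, 2.59% (937) were called in the former comparison and 1.8% (650) in the latter. These counts moved with single arrays, to between 129 (without replicate 1 of 6.7 Gy day 12) and 1348 (without replicate 1 of 6.7 Gy day 4) in the former, and to between 166 (without replicate 1 of 7.4 Gy day 12) and 692 (without replicate 2 of 7.4 Gy day 4) in the latter. Without replicate 4 of 6.7 Gy day 4, the 6.7 Gy fall was -3.48 (limma adjusted p = 0.0038). Without replicate 1 of 6.7 Gy day 12, which left 1 animal on that day that was taken to vary like the other groups, it was -2.69 and missed the cut-off (adjusted p = 0.077). The call at 7.4 Gy did not survive the removal of any one of its 6 arrays, with differences from -1.97 to -1.89 and adjusted p from 0.070 to 0.24.

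CNDP1 also fell between day 4 and day 7 at 6.7 Gy, by 1.78 on the log2 scale (SE 0.42, limma adjusted p = 0.048), and the groups did not overlap. In this comparison 0.354% of probes (128) were called, and between 32 and 186 over the removal of each array. Without replicate 4 of 6.7 Gy day 4 the difference was -2.11 (limma adjusted p = 0.028), and without any one of the other 7 arrays the adjusted p was between 0.083 and 0.11. At 7.4 Gy the difference between day 7 and day 4 was -1.43 (SE 0.42) and missed the cut-off (limma adjusted p = 0.064), with 0.942% of probes called. Without replicate 2 of 7.4 Gy day 7 it was -1.91 and passed (limma adjusted p = 0.014). Between day 7 and day 12 the difference was -1.37 at 6.7 Gy (adjusted p = 0.34, 0.036% of probes called) and -0.49 at 7.4 Gy (adjusted p = 0.85, 0.00554% of probes called). The former was -0.17 with array position in the fit and ran from -1.83 to -0.91 over the removal of each array. The latter was -0.0025 without replicate 2 and -0.94 without replicate 4 of 7.4 Gy day 7, and 0.12 with array position in the fit.

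Within a scan day the decline had the same direction. On the first scan day, CNDP1 at 6.7 Gy differed by -1.50 between day 7 and day 4 and by -2.87 between day 12 and day 4, and by -2.23 and -3.60 with the 1 day 4 array left when replicate 4 was removed. At 7.4 Gy the difference between day 7 and day 4 was -2.10 on the first scan day and -0.76 on the second, with 2 arrays in each group. On the second scan day, CNDP1 at 7.4 Gy differed by -1.85 between day 12 and day 4. With scan day as a term in the fit, the difference between day 7 and day 4 at 6.7 Gy was -1.51 and missed the cut-off (limma adjusted p = 0.12).

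No dose difference in CNDP1 passed the cut-off. The 7.4 Gy animals differed from the 6.7 Gy animals by -0.75 on day 4 (95% interval -1.63 to 0.13, limma adjusted p = 0.88), by -0.40 on day 7 (-1.28 to 0.48, adjusted p = 0.99) and by 0.48 on day 12 (-0.76 to 1.73, adjusted p = 0.92). The day 4 difference was -1.08 without replicate 4 of 6.7 Gy day 4 and -0.43 without replicate 1 of that group. On day 7 it was -0.89 without replicate 2 and 0.048 without replicate 4 of the 7.4 Gy group. The day 12 difference was 0.023 without replicate 1 and 0.95 without replicate 2 of the 6.7 Gy group. Over all probes, limma called 0% on day 4, 0% on day 7 and 0.00277% on day 12. At an unadjusted p below 0.05 with the same fold change it selected 153, 141 and 559 probes.

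CNDP2 gave a bright signal in every group and differed far less between groups than CNDP1. In the controls it measured 3.29, 2.75, 2.43 and 2.04 (mean 2.63 ± 0.53, SD, n = 4), at processed intensities of 4910 to 10798 units. The controls were more spread than any irradiated group.

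On day 4 after 6.7 Gy, CNDP2 measured 2.53, 2.10, 2.40 and 1.77 (mean 2.20 ± 0.34, SD, n = 4). On day 4 after 7.4 Gy it measured 1.42, 2.28, 1.98 and 2.21 (mean 1.97 ± 0.39, SD, n = 4). The group means were below that of the controls, but animals of both groups lay within the control range.

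Day 7 values of CNDP2 after 6.7 Gy were 2.52, 2.47, 2.75 and 2.53 (mean 2.57 ± 0.13, SD, n = 4). After 7.4 Gy they were 2.55, 2.53, 2.61 and 2.37 (mean 2.52 ± 0.10, SD, n = 4). All 8 animals of day 7 lay inside the control range.

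On day 12 CNDP2 measured 3.13 and 2.83 at 6.7 Gy, with a mean of 2.98, and 2.86 and 2.72 at 7.4 Gy, with a mean of 2.79. Ordered by mean, the groups ran from day 12 at 6.7 Gy through day 12 at 7.4 Gy, the controls, day 7 at 6.7 Gy, day 7 at 7.4 Gy and day 4 at 6.7 Gy to day 4 at 7.4 Gy. Each group in this order overlapped its neighbours.

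Relative to the controls, CNDP2 differed by -0.42 (SE 0.22) on day 4 after 6.7 Gy and by -0.65 (SE 0.22) on day 4 after 7.4 Gy. On day 7 the differences were -0.060 and -0.11 (SE 0.22 each), and on day 12 they were 0.35 and 0.16 (SE 0.27 each), at 6.7 Gy and 7.4 Gy respectively. Without replicate 4 of 6.7 Gy day 4, the difference on that day was -0.28. Without control replicate 1, the highest control, the day 4 differences were -0.20 at 6.7 Gy and -0.43 at 7.4 Gy, those of day 7 turned to 0.16 and 0.11, and those of day 12 were 0.57 and 0.38. That control also had the highest summed enterocyte level of the controls (418.1) and a summed smooth muscle level of 67.4 against 191.4 to 205.0 in the other 3, and the part of this in the differences was not tested. Without control replicate 4, the lowest control, the day 12 differences were 0.16 at 6.7 Gy and -0.030 at 7.4 Gy, the lowest over the removal of each array, and the latter was -0.055 with slide and -0.011 with scan day as a block. With 1 of the 2 animals of day 12 removed, they were 0.20 or 0.50 at 6.7 Gy and 0.092 or 0.24 at 7.4 Gy.

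CNDP2 was higher on the later days than on day 4, but no difference passed the cut-off. Between day 4 and day 12 it differed by 0.78 at 6.7 Gy (95% interval 0.21 to 1.34, limma adjusted p = 0.078) and by 0.82 at 7.4 Gy (0.25 to 1.39, adjusted p = 0.097). In both cases the day 12 animals lay above all animals of day 4, but the share of all probes that did so was not counted. The 6.7 Gy difference was 0.63 (limma adjusted p = 0.17) without replicate 4 of 6.7 Gy day 4. Between day 4 and day 7 the difference was 0.36 at 6.7 Gy (limma adjusted p = 0.37, and 0.22 without that array) and 0.54 at 7.4 Gy (adjusted p = 0.19). Between day 7 and day 12 it was 0.41 at 6.7 Gy (adjusted p = 0.59) and 0.27 at 7.4 Gy (adjusted p = 0.84). The 7.4 Gy animals differed from the 6.7 Gy animals in CNDP2 by -0.23 (day 4), -0.049 (day 7) and -0.19 (day 12), with limma adjusted p of 0.89, 0.996 and 0.95. Without that array the day 4 difference was -0.37 (limma adjusted p = 0.85). Over the removal of each array it ran from -0.37 to -0.044, and the day 12 dose difference ran from -0.33 to -0.038.

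The difference between the 2 genes within each array was used to compare their movements, because array-wide scaling cancels in it. CNDP1 minus CNDP2 averaged -7.35 ± 0.51 (SD, n = 4) in the controls. Since different probes are not comparable in level, only changes of this difference are read. Relative to the controls it was higher by 4.54 and 4.02 on day 4, by 2.40 and 2.04 on day 7, and by 0.61 and 1.28 on day 12, at 6.7 Gy and 7.4 Gy respectively. The first of these, 4.54, was 4.73 without replicate 4 of 6.7 Gy day 4.

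From day 4 to day 7 the difference between the genes changed by -2.14 at 6.7 Gy and by -1.97 at 7.4 Gy, with no overlap between days at either dose. The exact two-sided permutation test gave p = 0.029 for each, which is the smallest value that 4 animals against 4 allow, and p = 0.057 after Benjamini-Hochberg adjustment over 4 comparisons. Both changes use the day 4 animals that helped choose the pair, so these p-values are not independent of that choice. Between doses the difference between the genes changed by -0.52 on day 4 (exact permutation p = 0.17, adjusted 0.23) and by -0.35 on day 7 (exact permutation p = 0.60, adjusted 0.60). Without replicate 4 of 6.7 Gy day 4 the change to day 7 at 6.7 Gy was -2.33 (exact permutation, adjusted p = 0.11) and the dose difference on day 4 was -0.71 (adjusted p = 0.15). With an animal fewer the smallest p possible is larger, and for this change the adjusted p was 0.11 whichever of the 8 arrays was removed. Over the 24 arrays, which share their normalization, the Pearson correlation between CNDP1 and CNDP2 was -0.45, and it was -0.44 without replicate 4 of 6.7 Gy day 4. After subtraction of the group means it was 0.31.

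**Figure D3:**
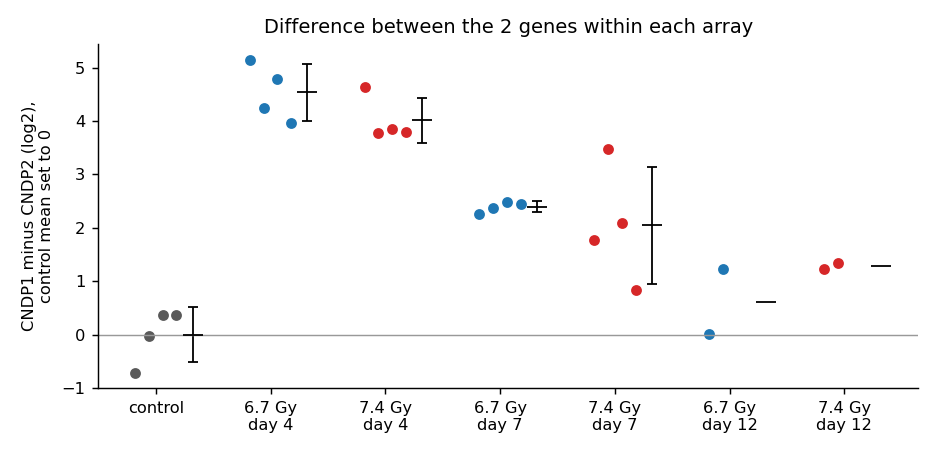
CNDP1 minus CNDP2 within each array on the log2 scale, with the control mean set to 0, for the 24 animals by dose and day; horizontal marks are group means with SD for groups of 4. The group means of day 4 lie highest and those of day 7 above those of day 12, while single animals of days 7 and 12 at 7.4 Gy overlap and 1 of the 2 animals of day 12 at 6.7 Gy lies among the controls.

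The other genes of carnosine and dipeptide handling were examined in 7 lists holding 73 genes, of which 52 had a tested probe. Against the controls, limma called 0 of 52 genes on day 4 after 6.7 Gy, 1 on day 4 after 7.4 Gy, and 0 in each comparison of days 7 and 12. Of all 36108 tested probes, 0.978% were called on day 4 after 6.7 Gy, 2.33% on day 4 after 7.4 Gy, 0.235% on day 7 after 6.7 Gy, 0.568% on day 7 after 7.4 Gy, 0.108% on day 12 after 6.7 Gy and 0.0443% on day 12 after 7.4 Gy. At an unadjusted p below 0.05 with the same fold change it selected 6, 2, 0, 1, 0 and 1 of the 52 genes in the 6 comparisons, and 1064, 1437, 475, 859, 608 and 663 of all tested probes. The median change of the 52 genes was -0.13, -0.15, -0.038, -0.080, -0.054 and 0.052, beside -0.099, -0.067, -0.0026, -0.030, 0.061 and -0.013 for all tested probes. Their extremes over the 6 comparisons were -1.53 and 1.46. On day 4 after 6.7 Gy the median was -0.057 without replicate 4, and limma again called 0 of the 52 genes, with 0.645% of probes called.

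The gene that passed was ASPA, encoding aspartoacylase, which removes the acetyl group from N-acetylaspartate. It measured -1.62 ± 0.43 (SD, n = 4) in the controls and -3.15 ± 0.41 (SD, n = 4) on day 4 after 7.4 Gy, a fall of -1.53 (SE 0.43, limma adjusted p = 0.038). Its difference on day 4 after 6.7 Gy was -1.17 (limma adjusted p = 0.12), or -0.91 without replicate 4 of that group. On day 4, between 0 and 1 list genes were called at each dose over 12 alternatives of the processing. The ASPA call at 7.4 Gy was thus not kept in all of them.

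In the list of carnosine and histidine metabolism, 9 of 15 genes were tested and limma called none. HDC, which makes histamine from histidine, differed from the controls by between -0.73 and 0.27 over the 6 irradiated groups, with -0.12 on day 4 after 6.7 Gy and -0.10 there without replicate 4. The AOC1 probes, listed under the older symbol ABP1 and matched to the histamine-degrading diamine oxidase after the list was applied, both lay lower on day 4, the brighter by -0.83 at 6.7 Gy (limma adjusted p = 0.32, and -0.17 without replicate 4) and -0.95 at 7.4 Gy (adjusted p = 0.26). CARNS1, which joins β-alanine and histidine into carnosine, and CARNMT1, which methylates it, were not analysed here because no probe carried their symbols. Among the 8 tested genes of β-alanine supply and use, none was called and the median change was between -0.37 and 0.083.

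The transporters that carry di- and tripeptides into cells were represented by 3 genes, and none was called. SLC15A1, the peptide transporter of the enterocyte brush border, differed from the controls by -0.80 on day 4 after 6.7 Gy (limma adjusted p = 0.20, and -0.26 without replicate 4) and by -0.32 on day 4 after 7.4 Gy (adjusted p = 0.63). Its 2 dimmer probes also lay below the controls on days 4 and 7, and on day 12 after 7.4 Gy they lay above them.

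Of the brush border peptidases, 11 of 14 were tested and none was called against the controls. ANPEP, aminopeptidase N, differed by -0.48 on day 4 after 6.7 Gy and by -0.0075 on day 4 after 7.4 Gy (limma adjusted p = 0.58 and 0.996). The former turned to 0.23 without replicate 4 of 6.7 Gy day 4. DPEP1, a membrane dipeptidase that also splits cysteinylglycine, differed by -0.94 and -0.55 (adjusted p = 0.27 and 0.55), with -0.24 for the former without replicate 4.

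Of the cytosolic peptidases, 11 of 15 were tested and none was called against the controls. PEPD, the prolidase that splits dipeptides ending in proline, differed by -1.21 and -0.95 on day 4 (limma adjusted p = 0.13 and 0.20), and by -0.56 at 6.7 Gy without replicate 4. LAP3, a leucine aminopeptidase, differed by 0.24 and 0.10 (adjusted p = 0.57 and 0.85), the former turning to -0.13 without that array. PM20D2, a relative of the carnosinases in sequence family, differed by -0.17 and -0.38 (adjusted p = 0.61 and 0.26), the former being -0.072 without it. ACY1, PM20D1 and GGT1 were not analysed here. None of the 8 tested genes of glutathione synthesis and breakdown was called.

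Between days, 3 genes of the lists were called, and they are named after their values were seen. ENPEP, glutamyl aminopeptidase, rose by 1.55 (limma adjusted p = 0.038) and ASPA by 1.84 (adjusted p = 0.042) between day 4 and day 12 at 6.7 Gy, where 2.59% of all probes were called. Without replicate 4 of 6.7 Gy day 4, ENPEP still passed at 1.02 (limma adjusted p = 0.039) and ASPA did not (1.58, adjusted p = 0.092). XPNPEP1, a cytosolic aminopeptidase that acts beside proline, rose by 1.04 (limma adjusted p = 0.0067) between day 4 and day 7 at 7.4 Gy, where 0.942% were called.

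**Figure D4:**
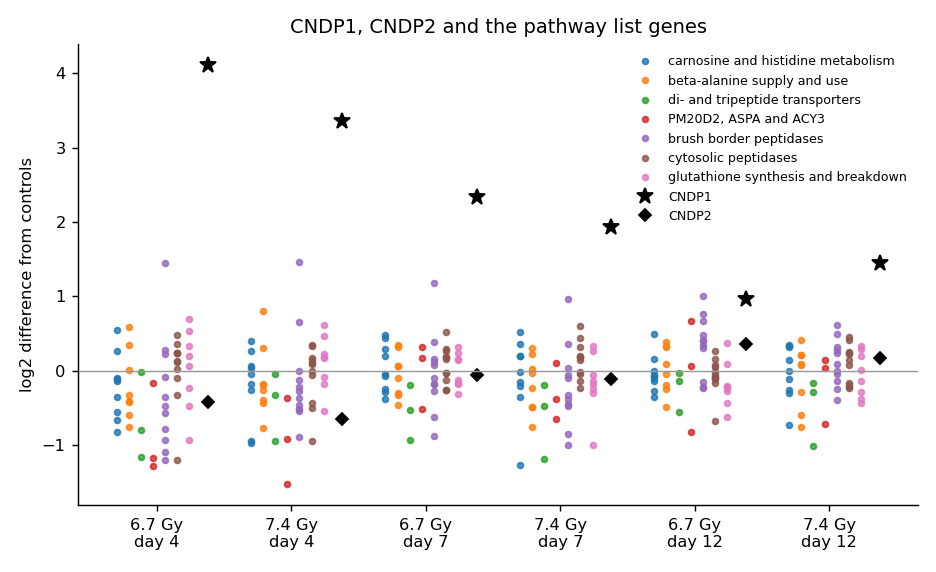
Log2 difference from the controls for the 52 tested genes of the 7 lists (dots, coloured by list) and for CNDP1 (star) and CNDP2 (diamond) in the 6 irradiated groups. On days 4 and 7 the CNDP1 star lies above every list gene, whose differences stay between -1.53 and 1.46, while CNDP2 lies within their range.

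CNDP1 and CNDP2 lie next to each other in the RefSeq gene order of the assembly T2T-MMU8v2.0, with no gene between them. That assembly is not the build of the array design, so it was used only for this order. On the CNDP1 side the nearest genes were LOC700283, ZNF407 and the non-coding LOC144336390, and on the CNDP2 side LOC144336391, DIPK1C and LOC144336569. Only LOC700283 and ZNF407 had tested probes.

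ZNF407, a zinc finger gene, had 3 tested probes, and the brightest differed from the controls by between -0.22 and 0.16 over the 6 irradiated groups. LOC700283 differed by between -0.18 and 0.064. No probe of either gene was called in the 6 comparisons (lowest limma adjusted p 0.11 for ZNF407 and 0.58 for LOC700283), in which CNDP1 differed from the controls by 0.96 to 4.11. Between irradiated groups, a dimmer ZNF407 probe, named after its values were seen, was higher on day 12 than on day 4 at 6.7 Gy (1.01, limma adjusted p = 0.022). No sequence is shown, since neither probe nor promoter nor protein sequence was part of the material used here.

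Among 14240 other genes, the 5 whose levels followed CNDP1 most closely over the 24 arrays were ZNRF3 (Pearson r 0.88), DDB2 (0.88), LCN15 (0.86), LOC721175 (0.86) and ZMAT3 (0.85). ZNRF3 encodes a ubiquitin ligase that removes Wnt receptors, DDB2 a protein that binds ultraviolet-damaged DNA, LCN15 a lipocalin and ZMAT3 an RNA-binding zinc finger protein. The arrays share the grouping by dose and day, and after subtraction of the group means the same correlations were 0.50, 0.28, 0.27, 0.40 and -0.091. For these 5 genes the likeness was thus mainly in the group means. DDB2, for example, differed from the controls by 2.31 and 2.52 on day 4 and by 0.31 and 0.77 on day 12, and LCN15 by 5.80 and 7.10 on day 4 and by 1.53 and 0.86 on day 12. The most opposite genes were NKX2-1 (r -0.80), LOC721054 (-0.80), LOC713877 (-0.78) and LOC705671 (-0.77), none of which differed from the controls by more than 0.73 in size. Within groups their correlations were -0.55, -0.72, -0.16 and -0.46. With replicate 4 of 6.7 Gy day 4 left out, the 5 highest correlations were between 0.84 and 0.88, and the day 4 differences at 6.7 Gy were 2.54 for DDB2 and 5.40 for LCN15.

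CNDP2 was followed most closely by PLS1 (r 0.96), DCAF11 (0.91), PICALM (0.90), MYO1A (0.89) and CYP4F12 (0.89). PLS1 and MYO1A encode proteins of the enterocyte microvillus, an actin bundler and a myosin that ties the actin core to the membrane. Within groups these correlations were nearly as high, at 0.94, 0.86, 0.83, 0.85 and 0.83. The most opposite genes were C1QTNF1 (r -0.88), ANXA3 (-0.88), PHLDB2 (-0.86), DCUN1D4 (-0.85) and CD44 (-0.85), with -0.80, -0.73, -0.80, -0.68 and -0.69 within groups.

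**Figure D5:**
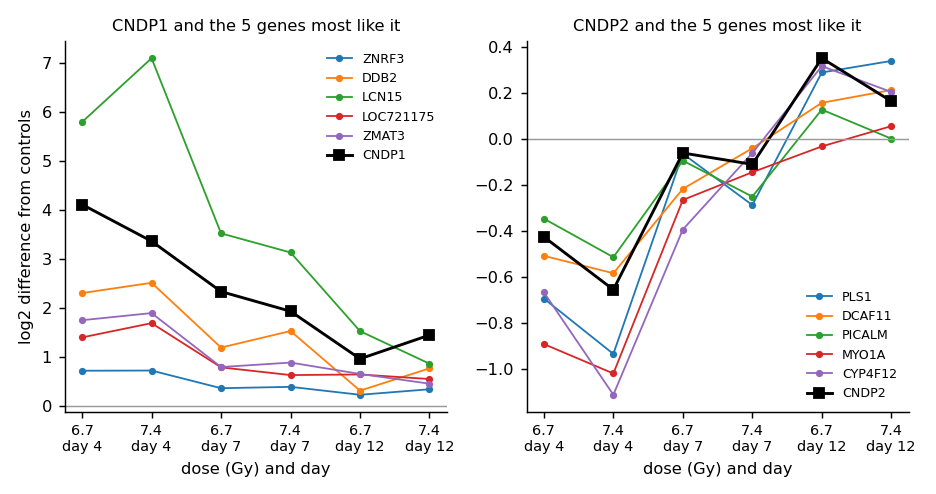
Log2 difference from the controls in the 6 irradiated groups for CNDP1 (left, black squares) and CNDP2 (right, black squares) with the 5 genes of highest Pearson correlation to each over the 24 arrays (coloured lines). The genes on the left are highest on day 4, with CNDP1 at 4.11 and 3.36, and those on the right are lowest on day 4, with CNDP2 at -0.42 and -0.65.

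Markers of the cell types of ileum also moved between groups, and their part in the CNDP1 and CNDP2 differences was not tested. For mature enterocytes, 8 of 12 markers were measured, and limma called 1 lower on day 4 after 6.7 Gy and, after 7.4 Gy, 1 higher and 2 lower, where 0.978% and 2.33% of all probes were called. Their summed level was 178.5 to 418.1 in the controls, 86.0 to 319.7 on day 4 after 6.7 Gy, 177.0 to 278.5 on day 4 after 7.4 Gy, 353.9 to 384.8 on day 12 after 6.7 Gy and 183.1 to 262.5 on day 12 after 7.4 Gy. The 86.0 was replicate 4 of 6.7 Gy day 4, and the other animals of that group lay at 253.7 to 319.7, inside the control range. Marker calls without that replicate are not given. For fibroblasts all 6 markers were measured, and 3 were called higher on day 4 after 7.4 Gy, where the summed level was 79.7 to 144.9 against 38.1 to 67.7 in the controls. Goblet cell, B cell and erythroid markers each had 3 tested members, of which 1 was called lower on day 4 at both doses. The summed goblet level was 133.7 to 325.7 on day 4 after 6.7 Gy and 247.8 to 377.2 after 7.4 Gy, against 352.2 to 410.9 in the controls. At 6.7 Gy the 133.7 was replicate 4, and the other animals lay at 265.2 to 325.7. On day 4 after 7.4 Gy 1 marker was also called higher among 6 of enteroendocrine cells, 5 of endothelium, 5 of enteric neurons and glia, and 4 of macrophages. On later days 1 erythroid marker was called lower on day 7 at both doses and on day 12 after 6.7 Gy, comparisons in which 0.235%, 0.568% and 0.108% of all probes were called. On day 7 after 7.4 Gy limma also called 1 of 3 B cell markers and 1 of 5 plasma cell markers lower, and the summed plasma cell level was 3.79 to 12.8 there against 11.4 to 49.6 in the controls. No other marker was called against the controls on day 7 or day 12. For liver and pancreas, 6 of 7 markers had a probe and limma called none of the 5 tested, also at an unadjusted p below 0.05 with the same fold change. Their summed level was 10.8 to 24.5 in the controls, 14.8 to 37.99 on day 4 after 6.7 Gy and 22.0 to 39.0 on day 4 after 7.4 Gy. At 6.7 Gy the 37.99 was again replicate 4, and the other animals lay at 14.8 to 25.5. On day 7 after 7.4 Gy, where CNDP1 was most spread, the summed enterocyte level was 152.1 to 294.1.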

How the data were processed

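Ileal RNA of 24 macaques was labelled with Cy3 and hybridised to Agilent 4x44K Rhesus v2 arrays, read with Feature Extraction 11.0.1.1 per the file headers. The deposited scanner files give a background-subtracted processed intensity for each spot, not scaled between arrays. The authors also deposited log2 values scaled to each array's 75th percentile and centred on each probe's median, which supplied the gene symbols and served as an alternative.

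For the present values, outlier spots were dropped if the probe had others, log2 intensities were averaged by probe, and the 75th percentile of each array was subtracted. A probe entered the test when all arrays of any of the 7 groups had it well above background (36108 of 43603). One mean per group was fitted in limma 3.58.1 (R 4.3.3), with Benjamini-Hochberg adjustment in each of 15 comparisons, and checked on simulated data. Permutation tests used SciPy 1.17.1. The number of arrays limits the precision.

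The members and lists were chosen with earlier results of these data known. Named genes were the pair, list genes called against the controls, 12 list genes fixed by name whatever their values, 3 neighbours on each side, and the 5 most and least correlated genes, each by its brightest tested probe. One result among the correlated genes is not reported here. Alternatives were normexp correction, quantile scaling, the deposited log2 table, other filters on dim probes, slide, scan day, array position or replicate number in the fit, trended robust moderation, fits of 2 groups, the methods' t-test and removal of each array. Normexp was run on spot medians in place of spot means, and it, the scan day term and the values of list and correlated genes, scan day and normexp comparisons without replicate 4 of 6.7 Gy day 4 were chosen after seeing the data. Replicate numbers name different animals and do not pair them.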

Additional observations from a re-analysis of the deposited data

Results flagged for a closer look

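Differences between irradiated groups that passed the cut-off were found for CNDP1 on 3 occasions. All 3 use day 4 animals, which also entered the comparisons that chose the pair. CNDP1 was lower on day 7 than on day 4 at 6.7 Gy (-1.78 on the log2 scale), lower on day 12 than on day 4 at 6.7 Gy (-3.15), and lower on day 12 than on day 4 at 7.4 Gy (-1.92). For neither gene did the gap between an extreme animal and its nearest neighbour, as a share of the range of its group of 4, exceed Dixon's 95% critical value. The widest gaps were 0.786 (CNDP2, highest animal of day 7 at 6.7 Gy) and 0.778 (CNDP1, lowest animal of day 4 at 7.4 Gy).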

How the results depend on the processing

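Normexp correction was combined with spot medians and an offset of 50, and these choices were not separated. With them the CNDP1 differences from the controls were 2.89 and 2.20 on day 4, 1.42 and 1.16 on day 7, and 0.57 and 0.66 on day 12, at 6.7 Gy and 7.4 Gy. On day 4 and day 12 after 7.4 Gy the differences were 3.04 and 0.97 with slide as a block, and 3.09 and 0.91 with scan day as a block. With array position the day 4 difference at 7.4 Gy was 3.91. Position could not be separated from group for days 7 and 12 against the controls or against day 4. The fit with a replicate block gave 1.28 on day 12 after 7.4 Gy and changed no call of either gene between irradiated groups, and 10 of 40 same-numbered pairs correlated above 0.1 (range -0.26 to 0.23).

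The fall of CNDP1 from day 4 to day 7 at 6.7 Gy missed the cut-off with quantile scaling (-1.78), without the filter (-1.78), with slide (-1.62) or scan day (-1.51) in the fit, with only the 2 groups (-1.78) and by the methods' t-test (-1.78), and ranged from -2.11 to -1.46 over removals of an array. The fall to day 12 at 6.7 Gy missed it with only the 2 groups (-3.15) and by the methods' t-test (-3.15), and ranged from -3.61 to -2.69. The fall to day 12 at 7.4 Gy missed it without the filter (-1.92), with slide (-2.07) and by the methods' t-test (-1.92), and ranged from -1.97 to -1.89. The difference between day 7 and day 4 at 7.4 Gy ranged from -1.91 to -0.98, and the day 12 difference from the controls at 6.7 Gy from 0.50 to 1.43. The cause of these losses was not tested.

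Small dose differences that were not called changed sign. CNDP1 on day 12 was -0.055 with scan day, and on day 7 it was 0.20 with array position, and -0.89 to 0.048 over removals. CNDP2 on day 7 ranged from -0.083 to 0.013, and CNDP1 minus CNDP2 on day 7 from -0.83 to 0.049. CNDP1 between day 12 and day 7 at 7.4 Gy was 0.12 with array position. Over all alternatives, the removal of each array included, counts of probes called against the controls ranged from 0 to 436 on day 4 after 6.7 Gy and from 20 to 1004 after 7.4 Gy, and those between day 12 and day 4 from 1 to 1348 at 6.7 Gy and from 0 (by the methods' t-test) to 758 at 7.4 Gy. On day 7 the counts against the controls ranged from 2 to 92 after 6.7 Gy and from 0 to 212 after 7.4 Gy. Those between day 7 and day 4 ranged from 0 to 186 at 6.7 Gy and from 29 to 376 at 7.4 Gy. With the removal of arrays left aside, day 12 counts against the controls were 0 to 60 after 6.7 Gy and 0 to 27 after 7.4 Gy. Those between doses on day 12 were then 0 to 8. Each gene has 1 probe, so averaging probes changed nothing.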
